A study of Mus musculus with 16 samples.

Results

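The 32 genes described here are a fixed list of cell cycle genes: the D and E type cyclins and their kinases, 2 inhibitors of those kinases, genes of DNA replication, and genes of the G2 phase and mitosis. They were chosen by name, not by any value measured in these livers, and are 32 of the 25006 Ensembl gene identifiers in the count table. Livers came from C57BL/6 mice, an inbred laboratory strain, that drank control water or antibiotic water and then received a single oral gavage of a slurry made from chow or from fast food. The organ was taken 4 h after the gavage, and poly(A) RNA was sequenced as single reads of 50 bases in 16 libraries, 4 per group. The groups were chow with control water (chow control), fast food with control water (fast food control), chow with antibiotic water (chow antibiotic) and fast food with antibiotic water (fast food antibiotic). Neither the age and sex of the mice nor the antibiotics, their dose and duration are stated in the labels used here. The labels do not say that each replicate is a separate mouse. Where some share a mouse, a p-value covers no more than the spread among these libraries.

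Hepatocytes of the adult liver are mostly quiescent and can re-enter the cycle after injury or loss of tissue. Mitogens raise D type cyclins, which with Cdk4 and Cdk6 phosphorylate the retinoblastoma protein and release E2F factors. These factors drive cyclin E, the MCM helicase, PCNA and the enzymes of nucleotide supply, whereas genes of G2 and mitosis follow later and are held down in resting cells by the DREAM complex. The products of Cdkn1a (p21) and Cdkn1b (p27) inhibit the cyclin-dependent kinases.

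Libraries held 8954378 to 18954655 counts. Features that collect ribosomal RNA-like reads (Lars2, Mir6236, Gm20594 and Mir6240, 4 in all) took at most 0.587% of them in 9 libraries and at least 2.45% in the other 7. Those 7 were replicates 1 and 2 of chow control, 2 and 4 of chow antibiotic, and 1, 2 and 4 of fast food antibiotic. Earlier results of these data had shown 3 libraries with high acute phase transcripts: replicate 2 of chow control, replicate 4 of chow antibiotic and replicate 2 of fast food antibiotic. Calls gained or lost without these 3 libraries are given with both values. The 5 hepatocyte markers (Alb, Ttr, Apoa1, Serpina1c and Cyp2e1) were detected in every group, with a summed level of 69800 to 193000 CPM (counts scaled to a common library size with TMM factors).

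Of the 32 genes, 27 passed the filter on low counts and 5 were too low to test. The 5 were the mitotic cyclins Ccnb1 and Ccnb2, the mitotic kinases Aurkb and Plk1, and the spindle checkpoint kinase Bub1. Ccnb1 had 18 reads over all 16 libraries and none in 8 of them. Bub1 had 21 reads, Plk1 23, Aurkb 34 and Ccnb2 58. Per kilobase of exon (RPKM, mean of 16 libraries), the G1 kinase gene Cdk4 was the highest member at 8.5, followed by Cdkn1b at 6.82 and Pcna at 4.17. Ccnd1 stood at 1.81 RPKM and Cdk6 at 2.38. Mki67, the gene of the Ki-67 proliferation antigen, stood at 0.172 RPKM, Cdk1 at 0.132, Top2a at 0.101 and Ccnb1, the lowest of the 32, at 0.017. In this order the late genes came last: the 11 genes of G2 and mitosis were at or below the 0.574 RPKM of Aurka, and 10 of them were among the 11 lowest, with E2f1 the other.

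**Figure D1:**
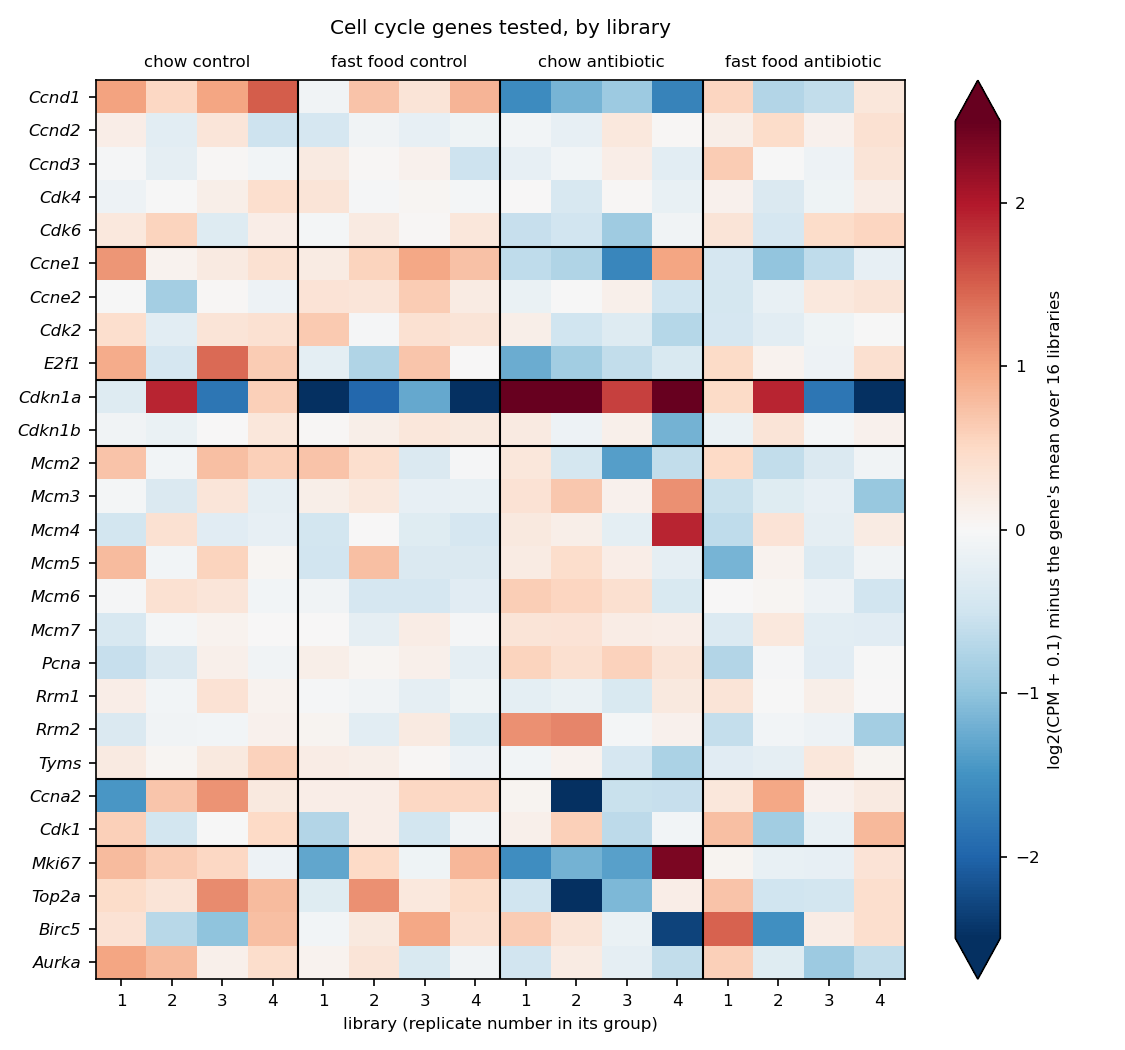
Levels of the 27 tested genes (rows, grouped by role) in each of the 16 libraries (columns, replicate numbers within the group). Colour is the log2 CPM with a small constant added, minus the mean of the gene over all libraries. Ccnd1 was lowest in the 4 chow antibiotic libraries (2.13 to 3.67 CPM). Cdkn1a was high there (16.9 to 52.7 CPM), but the highest libraries of chow control and fast food antibiotic were at 19.4 CPM. No comparison of Cdkn1a passed in edgeR.

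Promoter sequences were available in the RefSeq table (GRCm38.p6) for 26 of the 32 genes, as 29 windows from 250 bases before to 50 bases after a transcription start. A CCAAT box (CCAAT on either strand) was present in 20 of the 29 windows (69%) and in 37.4% of all 32851 windows. By role it was present in 9 of 10 windows of the replication genes, in 8 of 9 of the G2 and mitosis genes and in 3 of 10 of the G1, G1/S and inhibitor genes. The CHR (cell cycle genes homology region, searched as TTTGAA on either strand) was present in 6 of 9 windows of the G2 and mitosis genes, 1 of 10 of the replication genes and none of the other 10, against 17.9% of all windows. The E2F core (GCGGGAA on either strand) was present in 4 of 10 windows of the replication genes and in none of the 9 of the G2 and mitosis genes, against 4.6% of all windows. The GC box (GGGCGG on either strand) was present in 24 of the 29 windows (82.8%), against 35.7% of all windows. These matches describe letters in the windows and not bound sites. The 150 bases before the RefSeq start of 5 genes that passed a test are printed, with CCAAT on either strand (CCAAT or ATTGG) in capitals. The first 3 are replication genes, and the last 2 are E2f1, with no match, and Top2a, with 4. The stretches are Pcna chr2:132253181-132253330 (minus strand), Rrm2 chr12:24708104-24708253 (plus strand), Mcm3 chr1:20820313-20820462 (minus strand), E2f1 chr2:154569427-154569576 (minus strand) and Top2a chr11:99024190-99024339 (minus strand). Gene coordinates given below are from GENCODE, whose starts can differ from those of RefSeq. The E2f1 stretch lies inside the GENCODE gene, which runs to 154569892. The stretches of Pcna (gene to 132253314) and Rrm2 (gene from 24708241) lie partly inside theirs.
Pcna: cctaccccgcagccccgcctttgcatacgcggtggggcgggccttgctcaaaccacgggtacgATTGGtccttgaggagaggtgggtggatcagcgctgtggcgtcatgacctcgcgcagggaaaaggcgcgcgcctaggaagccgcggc
Rrm2: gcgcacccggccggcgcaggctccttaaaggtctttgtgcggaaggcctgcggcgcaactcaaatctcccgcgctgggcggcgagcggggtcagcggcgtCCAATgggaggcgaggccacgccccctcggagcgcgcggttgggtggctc
Mcm3: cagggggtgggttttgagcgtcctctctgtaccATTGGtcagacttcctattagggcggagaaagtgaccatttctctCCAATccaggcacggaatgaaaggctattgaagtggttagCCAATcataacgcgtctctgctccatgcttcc
E2f1: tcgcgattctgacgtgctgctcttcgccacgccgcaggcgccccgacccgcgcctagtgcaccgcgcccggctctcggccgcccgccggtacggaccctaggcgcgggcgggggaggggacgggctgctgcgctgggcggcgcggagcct
Top2a: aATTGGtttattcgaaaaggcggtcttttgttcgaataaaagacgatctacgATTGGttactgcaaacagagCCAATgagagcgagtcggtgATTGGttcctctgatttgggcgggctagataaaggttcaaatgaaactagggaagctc

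The members were tested in 4 comparisons of 2 groups and in the interaction of meal and water, with edgeR's quasi-likelihood test on all 13180 genes and a Benjamini-Hochberg adjusted p of 0.05 as the threshold. Fast food against chow in control water changed none of the 27 tested members, where 0.577% of all genes passed. At an unadjusted p under 0.05 there were 3 (all genes 11.5%), DESeq2 called 0 (all genes 2.33%), and the groups did not overlap in 2 (all genes 10.3%). Fast food against chow in antibiotic water changed 5 members, or 18.5% of those tested, where 13.7% of all genes passed. Ccnd1 and Cdk6 rose (all genes 7.78% higher) and Mcm3, Pcna and Rrm2 fell (all genes 5.87% lower), and the groups did not overlap in 6 members (all genes 14.5%). Antibiotic against control water after chow changed 6 members, or 22.2% of those tested, where 23.8% of all genes passed, so that the share was near that of all genes. Pcna and Rrm2 rose (all genes 10.6% higher) and Ccnd1, Cdk6, E2f1 and Top2a fell (all genes 13.2% lower), and the groups did not overlap in 4 members (all genes 24.8%). Antibiotic against control water after fast food changed none, where 5.99% of all genes passed. There, 4 members had an unadjusted p under 0.05 (all genes 26%), DESeq2 called 2 (all genes 12.3%), and the groups did not overlap in 4 (all genes 18.4%).

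The median log2 fold change of the 27 tested members was -0.17 for the meal in control water, 0.13 for the meal in antibiotic water, -0.17 for the water after chow and -0.12 for the water after fast food. Over all genes tested these medians were -0.02, 0.03, -0.01 and 0.02. The 2 comparisons with calls share the 4 chow antibiotic libraries, so their values are given side by side and are not independent. With 1 library left out, the 5 calls of the meal in antibiotic water became 2 to 7. The 7 came without replicate 2 of fast food antibiotic (all genes 22.8%). The calls were 3 without replicate 1 (all genes 11.2%) or without replicate 2 (all genes 7.22%) of chow antibiotic. They were also 3 without replicate 1 (all genes 8.14%) and 2 without replicate 4 (all genes 5.24%) of fast food antibiotic. In a fit of only the 2 groups that call count was 0, where 1.87% of all genes passed. Without the 3 libraries of high acute phase transcripts it was 10, where 24.2% of all genes passed, with Cdkn1a (-3.55), Mcm6 (-0.76), Mcm7 (-0.61), Rrm1 (0.40) and Mki67 (1.57) added. The count for the water after chow was 10 as well, where 29.8% of all genes passed, with Ccne1 (-1.66), Cdkn1a (2.91), Rrm1 (-0.46) and Mki67 (-1.94) added.

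**Figure D2:**
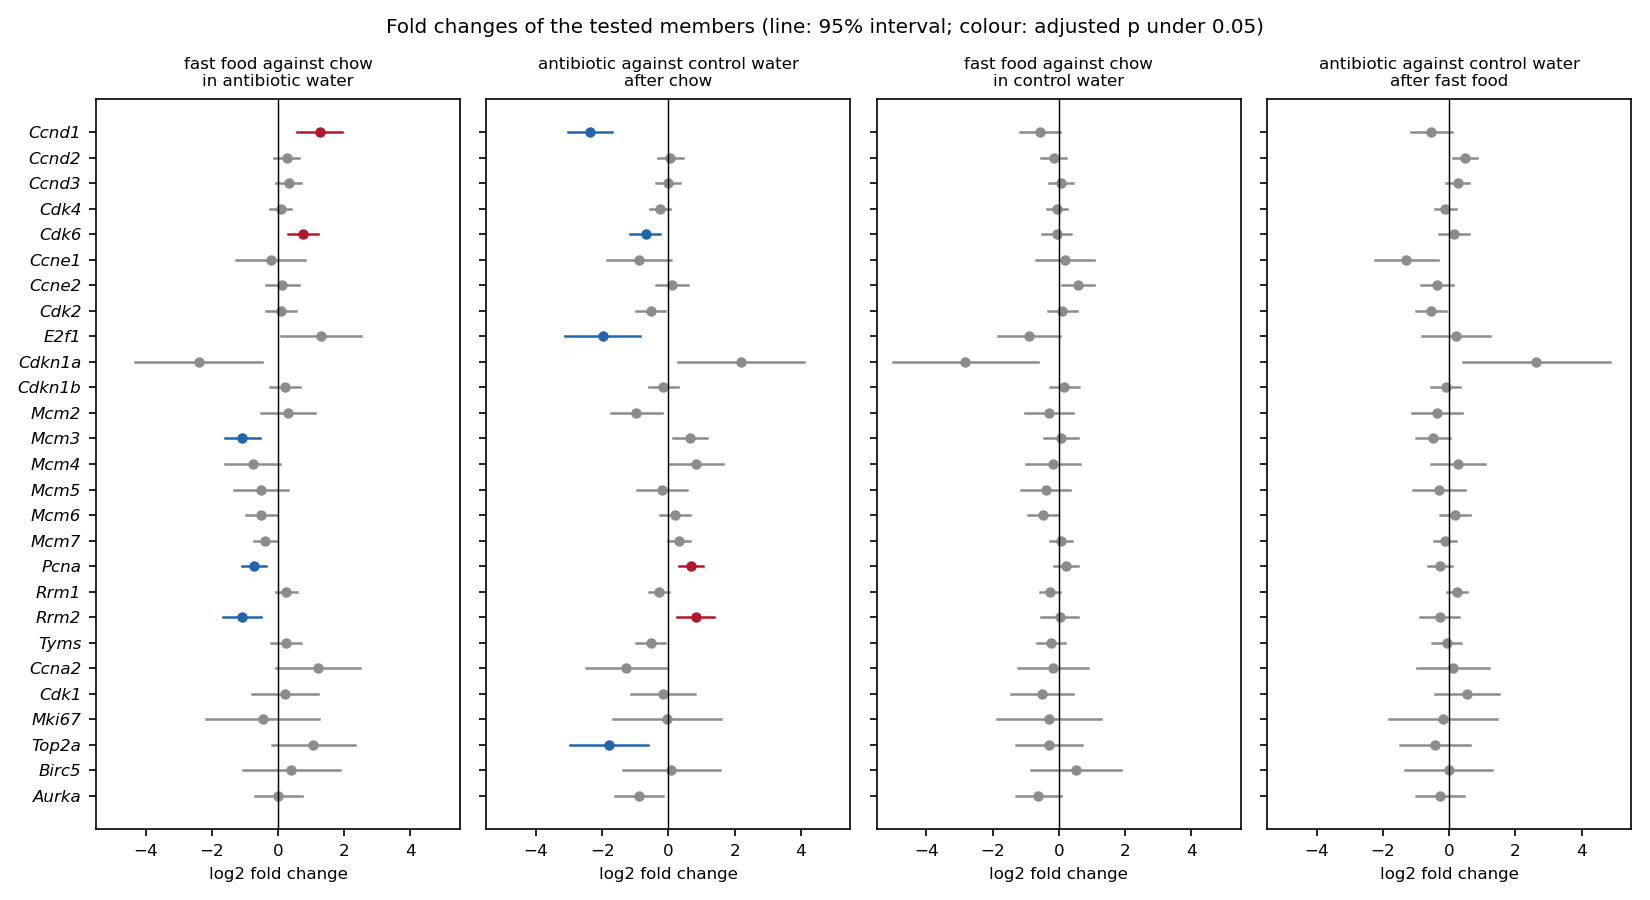
Log2 fold change of each of the 27 tested genes in the 4 comparisons of 2 groups, with 95% intervals. Red and blue mark genes past the threshold, higher and lower. The 5 calls for the meal in antibiotic water and the 6 for the water after chow are coloured, and the panels for the meal in control water and for the water after fast food have none.

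Among the G1 cyclins and their kinases, Ccnd1 and Cdk6 were the ones that changed. Ccnd1 (ENSMUSG00000070348, GRCm38 chr7:144929931-144939925, minus strand) encodes cyclin D1, which couples mitogen signals to G1 progression. Its levels were 14.2, 10.1, 14 and 20.2 CPM in chow control, 6.53, 11.5, 8.82 and 12.7 in fast food control, 2.28, 3.07, 3.67 and 2.13 in chow antibiotic, and 10.2, 4.16, 4.54 and 8.58 in fast food antibiotic. Every chow antibiotic library lay below every other library, and the 2 groups on control water overlapped. The means were 14.6 ± 4.19, 9.88 ± 2.76, 2.79 ± 0.718 and 6.88 ± 3.01 CPM (SD, n = 4). After chow, Ccnd1 was 5.17-fold lower on antibiotic water (log2 fold change -2.37 ± 0.32 SE, 95% interval -3.04 to -1.69, edgeR adjusted p = 0.00015). This call held in all 17 alternative fits, with log2 values from -2.54 to -2.14. On antibiotic water, Ccnd1 rose after fast food (1.26 ± 0.32, interval 0.57 to 1.94, edgeR adjusted p = 0.02). That call was lost without replicate 1 (1.12, edgeR adjusted p = 0.0565) or 4 (1.14, 0.0519) of chow antibiotic. It was also lost without replicate 1 (1.00, 0.0625) or 4 (1.13, 0.0664) of fast food antibiotic, and with only the 2 groups in the fit (1.26, 0.0677). On control water the value was -0.57 (interval -1.17 to 0.04), which did not pass. An exon of Ccnd1 lies across from an exon of the protein-coding gene LTO1 on the other strand, and the labels do not give the strand setting of the counting.

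Cdk6 (chr5:3341485-3531008, plus strand) encodes a kinase partner of the D cyclins. It measured 38.6, 47.3, 25.5 and 35.8 CPM in chow control, 31.1, 37.4, 32.5 and 39.1 in fast food control, 21.3, 22.9, 17.2 and 30.1 in chow antibiotic, and 39.9, 23.8, 43.9 and 46.8 in fast food antibiotic. The chow antibiotic libraries were low as a group but overlapped with both groups they were compared with. Cdk6 fell on antibiotic water after chow (-0.69 ± 0.22, edgeR adjusted p = 0.0281) and rose with fast food on antibiotic water (0.76 ± 0.22, edgeR adjusted p = 0.0296). The first call was lost without chow control replicate 1 (-0.67), 2 (-0.55) or 4 (-0.68) and without chow antibiotic replicate 1 (-0.64), 2 (-0.69) or 3 (-0.58), with adjusted p up to 0.0821. The second was lost without chow antibiotic replicate 1 (0.71), 2 (0.76) or 3 (0.64), without fast food antibiotic replicate 1 (0.75), 3 (0.69) or 4 (0.66), and with only the 2 groups in the fit (0.74, adjusted p = 0.0954). Without the 3 libraries of high acute phase transcripts it was 1.06 (adjusted p = 0.000168). Cdk6 also overlaps an annotated antisense gene, Gm17590, on the other strand.

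Ccnd2, Ccnd3 and Cdk4 passed no test. Cdk4 ranged from 20.6 to 36.4 CPM over the 16 libraries, with log2 fold changes between -0.25 and 0.08 in the 4 comparisons. The interval for the water after chow was -0.56 to 0.06. Ccnd3, cyclin D3, measured 12.8 to 28.5 CPM, and its interval for the meal in antibiotic water was -0.05 to 0.69. Ccnd2, cyclin D2, was 5.83 to 7.34 CPM in fast food control and 8.35 to 10.8 in fast food antibiotic, without overlap (0.48 ± 0.18, edgeR adjusted p = 0.102). Ccnd2, Ccnd3 and Cdk4 each overlap an annotated gene on the other strand. Summed over the 5 G1 genes, the level was 70.6 to 79.4 CPM in chow antibiotic, 98.1 to 115 in chow control, 96.1 to 101 in fast food control and 78.2 to 119 in fast food antibiotic. The 5 genes thus did not move alike: Ccnd1 and Cdk6 carried the lower sum.

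In the G1/S group, E2f1 was the gene that changed. E2f1 (chr2:154559407-154569892, minus strand) encodes an activating E2F transcription factor. It measured 0.859, 0.275, 1.24 and 0.68 CPM in chow control, 0.321, 0.197, 0.714 and 0.406 in fast food control, 0.111, 0.175, 0.229 and 0.284 in chow antibiotic, and 0.597, 0.431, 0.361 and 0.566 in fast food antibiotic. These are 2 to 25 reads per library. Chow antibiotic lay below fast food antibiotic without overlap, and touched the lowest chow control library. E2f1 fell on antibiotic water after chow (-1.99 ± 0.54, edgeR adjusted p = 0.013), a call lost without chow control replicate 3 (-1.60, 0.0615) or chow antibiotic replicate 1 (-1.73, 0.0502). It was not among the calls with only the 2 groups fitted. The stricter filter (a mean of at least 10 counts in every group) left it untested, with 10 reads over the chow antibiotic libraries. The meal value on antibiotic water was 1.30 ± 0.58 (edgeR adjusted p = 0.139).

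The genes of cyclin E and its kinase passed no test. Ccne1, cyclin E1, measured 1.28 to 2.24 CPM in fast food control and 0.503 to 0.943 in fast food antibiotic, without overlap. Its value for the water after fast food was -1.30 ± 0.45 (edgeR adjusted p = 0.0851), and it passed with DESeq2 (adjusted p = 0.041) and with only the 2 groups in the fit (adjusted p = 0.0297). After chow, Ccne1 was 0.287 to 0.667 CPM in chow antibiotic replicates 1 to 3 and 2.27 in replicate 4, against 1.17 to 2.47 in chow control. Without replicate 4 its log2 fold change for the water after chow was -1.55 (edgeR adjusted p = 0.00883). Ccne2, cyclin E2, was 1.85 to 3.52 CPM in chow control and 3.96 to 5.4 in fast food control, without overlap (0.59 ± 0.23, edgeR adjusted p = 0.305). Cdk2, the kinase of cyclin E, measured 3.55 to 6.55 CPM in chow antibiotic and 4.88 to 7.94 in chow control (-0.54 ± 0.21, edgeR adjusted p = 0.0731). That value passed without chow control replicate 2 (-0.67, 0.0263) or chow antibiotic replicate 1 (-0.72, 0.0266). It also passed with an rRNA-like share above 1% as a model term (-0.55, 0.0481).

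Cdkn1a and Cdkn1b differed in spread by a wide margin. Cdkn1a (chr17:29090976-29100727, plus strand), the gene of the p53-induced kinase inhibitor p21, measured 4.08, 19.4, 1.39 and 7.74 CPM in chow control, 0.482, 1.23, 2.04 and 0.813 in fast food control, 35, 46.3, 16.9 and 52.7 in chow antibiotic, and 7.16, 19.4, 1.39 and 0.566 in fast food antibiotic. The means were 8.16 ± 7.95, 1.14 ± 0.673, 37.7 ± 15.7 and 7.13 ± 8.68 CPM (SD, n = 4). All 4 chow antibiotic libraries were high, and in both other groups with overlap the highest library was replicate 2, which in each is a library of high acute phase transcripts. No comparison passed in edgeR. The values were 2.20 ± 0.88 for the water after chow (edgeR adjusted p = 0.0866), -2.39 ± 0.89 for the meal on antibiotic water (adjusted p = 0.09), -2.82 ± 1.02 for the meal on control water (adjusted p = 0.292) and 2.63 ± 1.02 for the water after fast food (adjusted p = 0.129).

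Whether Cdkn1a passed depended on the libraries and on the fit. The water value after chow passed without chow control replicate 2 (3.09, edgeR adjusted p = 0.0355), and the meal value on antibiotic water passed without fast food antibiotic replicate 2 (-3.71, edgeR adjusted p = 0.0153). Without all 3 libraries of high acute phase transcripts they were 2.91 (adjusted p = 0.0192) and -3.55 (adjusted p = 0.0135). They passed with all libraries when an rRNA-like share above 1% was a model term (2.30, adjusted p = 0.0455, and -2.90, adjusted p = 0.0355). With the replicate number as a block they also passed, at 2.57 (adjusted p = 0.0349) and -2.84 (adjusted p = 0.0437). DESeq2 called the meal on antibiotic water (adjusted p = 0.0467) and the water after fast food (2.64, adjusted p = 0.0416), which was 1.31 in edgeR without fast food antibiotic replicate 2. Without chow control replicate 2 the meal value on control water was -1.94 (edgeR adjusted p = 0.632). Cdkn1b, the gene of p27, lay between 26.9 and 37.8 CPM in 15 of the 16 libraries and at 13.3 in chow antibiotic replicate 4. Its intervals in the 4 comparisons lay between -0.60 and 0.65.

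**Figure D3:**
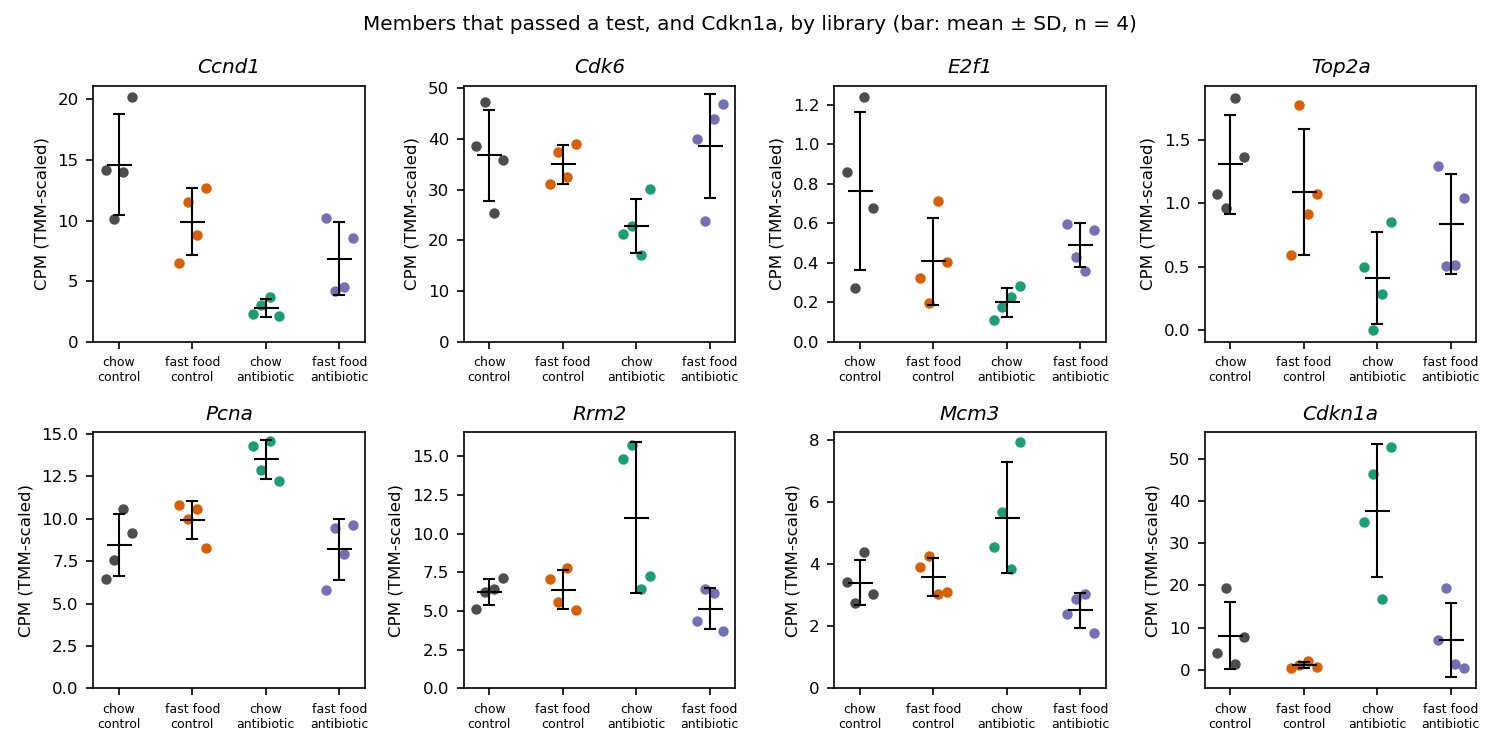
CPM of the 7 genes that passed a test and of Cdkn1a in each library (points), with the mean and SD of each group (n = 4). Ccnd1 in chow antibiotic (2.13 to 3.67 CPM) lies below every other library, and Pcna in chow antibiotic (12.2 to 14.6 CPM) above every other library.

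Of the 10 genes of DNA replication and nucleotide supply, Pcna, Rrm2 and Mcm3 changed. Pcna (chr2:132249162-132253314, minus strand) encodes the sliding clamp of the replication fork, which also serves in DNA repair. It measured 6.44, 7.55, 10.6 and 9.15 CPM in chow control, 10.8, 10, 10.6 and 8.28 in fast food control, 14.3, 12.9, 14.6 and 12.2 in chow antibiotic, and 5.77, 9.48, 7.94 and 9.62 in fast food antibiotic. Every chow antibiotic library lay above every other library. Pcna rose on antibiotic water after chow (0.67 ± 0.17, edgeR adjusted p = 0.0101), a call kept in all 17 alternative fits at 0.57 to 0.80. With fast food on antibiotic water it fell (-0.72 ± 0.17, edgeR adjusted p = 0.0148), a call lost only with the 2 groups fitted alone (-0.73, 0.0562). Processed pseudogenes of Pcna are annotated, and the labels do not say how reads with several matches were counted.

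Rrm2 (chr12:24708241-24714146, plus strand) encodes the small subunit of ribonucleotide reductase, the enzyme that makes deoxyribonucleotides. Its levels were 5.15, 6.25, 6.39 and 7.16 CPM in chow control, 7.06, 5.56, 7.8 and 5.08 in fast food control, 14.8, 15.7, 6.42 and 7.24 in chow antibiotic, and 4.38, 6.39, 6.14 and 3.68 in fast food antibiotic. Chow antibiotic replicates 1 and 2 were high, and replicates 3 and 4 were close to the chow control range. Rrm2 rose on antibiotic water after chow (0.82 ± 0.27, edgeR adjusted p = 0.0348) and fell with fast food on antibiotic water (-1.09 ± 0.27, edgeR adjusted p = 0.0173). The first call was lost with the 2 groups alone (0.84, 0.0686), with the replicate number as a block (0.76, 0.0607), without chow control replicate 1 (0.75), 2 (0.82) or 3 (0.83), and without chow antibiotic replicate 1 (0.67) or 2 (0.62, adjusted p = 0.123). The second was lost with the 2 groups alone (-1.11, 0.0868) and without chow antibiotic replicate 2 (-0.89, 0.0567) or replicate 4 of fast food antibiotic (-0.97, 0.0618).

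Mcm3 (chr1:20802968-20820312, minus strand) encodes a subunit of the MCM2-7 helicase that licenses replication origins. It measured 3.43, 2.75, 4.41 and 3.03 CPM in chow control, 3.91, 4.28, 3.06 and 3.1 in fast food control, 4.55, 5.69, 3.84 and 7.95 in chow antibiotic, and 2.39, 2.87, 3.04 and 1.79 in fast food antibiotic. The 2 groups on antibiotic water did not overlap. Mcm3 fell with fast food there (-1.08 ± 0.25, edgeR adjusted p = 0.0122), lost only with the 2 groups fitted alone (-1.10, 0.062). For the water after chow it was 0.66 ± 0.24 (edgeR adjusted p = 0.0569, DESeq2 adjusted p = 0.0379). That value passed in edgeR without chow control replicate 3 (0.82, 0.0395) or chow antibiotic replicate 3 (0.80, 0.0308). It was 0.38 (edgeR adjusted p = 0.256) without the 3 libraries of high acute phase transcripts.

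The other 5 helicase subunits passed no test and did not share a direction. For the water after chow, Mcm2 was -0.98 ± 0.37 (edgeR adjusted p = 0.0645, DESeq2 0.0479). In edgeR it passed with the replicate number as a block (-1.11, 0.0236). It also passed without chow control replicate 2 (-1.13, 0.0403) or chow antibiotic replicate 1 (-1.39, 0.0208). In the same comparison Mcm7 was 0.33 ± 0.15 (edgeR adjusted p = 0.133). Every chow antibiotic library of Mcm7 (9.66 to 10.9 CPM) was above every chow control library (6.44 to 9.17). Mcm7 shares its locus with Mir25 and Mir93 and overlaps 2 genes on the other strand. Mcm4 was 0.84 ± 0.39 and 0.19 without chow antibiotic replicate 4, which measured 21.9 CPM against 4.87 to 6.89 in the other 3 libraries. On antibiotic water the meal values were -0.50 ± 0.22 for Mcm6 (edgeR adjusted p = 0.131) and -0.39 ± 0.16 for Mcm7 (edgeR adjusted p = 0.101). They passed without chow antibiotic replicate 4 (Mcm6 -0.69, 0.0332) and without fast food antibiotic replicate 2 (Mcm7 -0.56, 0.0127). Mcm5 ranged from 0.398 to 1.82 CPM, with an interval of -1.32 to 0.29 for the same contrast.

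Rrm1, the large subunit of ribonucleotide reductase, did not follow Rrm2. It measured 8.54 to 13.3 CPM in chow antibiotic and 10.6 to 14.4 in chow control, with an interval of -0.58 to 0.03. Tyms, thymidylate synthase, measured 2.13 to 4.03 CPM in chow antibiotic and 3.91 to 5.7 in chow control (-0.54 ± 0.21, edgeR adjusted p = 0.069). That value passed without chow antibiotic replicate 2 (-0.66, 0.0465). On antibiotic water the meal interval was -0.05 to 0.56 for Rrm1 and -0.21 to 0.68 for Tyms. Summed over the 10 genes, the level was 56.8 to 78.8 CPM in chow antibiotic and 46.2 to 62.7 in the other 12 libraries.

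Top2a was the only gene of G2 and mitosis past the threshold, in 1 comparison. Top2a (chr11:98992943-99024189, minus strand) encodes topoisomerase II alpha, which untangles chromosomes in dividing cells. It measured 1.07, 0.961, 1.83 and 1.36 CPM in chow control, 0.589, 1.77, 0.918 and 1.07 in fast food control, 0.5, 0, 0.287 and 0.852 in chow antibiotic, and 1.29, 0.503, 0.516 and 1.04 in fast food antibiotic. Chow antibiotic lay below chow control without overlap. Top2a fell on antibiotic water after chow (-1.79 ± 0.56, edgeR adjusted p = 0.0285). The call was lost without chow control replicate 3 (-1.57, 0.0865) or 4 (-1.76, 0.057), without chow antibiotic replicate 2 (-1.41, 0.0604) or 3 (-1.65, 0.0774), and with the 2 groups fitted alone (-1.78, 0.0531). With 20 reads over the chow antibiotic libraries, Top2a was untested under the stricter filter.

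Mki67 showed how far 1 library reached. It measured 2.36, 2.13, 1.93 and 1.2 CPM in chow control, 0.482, 1.92, 1.22 and 2.44 in fast food control, 0.389, 0.525, 0.459 and 7.24 in chow antibiotic, and 1.39, 1.15, 1.13 and 1.7 in fast food antibiotic. Chow antibiotic replicate 4 held 51 reads, whereas the other 3 libraries of the group held 6 to 8. With all libraries the value for the water after chow was -0.04 (interval -1.66 to 1.58). Without that replicate it was -2.01 (edgeR adjusted p = 0.00633). The meal value on antibiotic water was -0.46 (interval -2.18 to 1.25) and turned to 1.51 (edgeR adjusted p = 0.0548) without that replicate, and to 1.57 (edgeR adjusted p = 0.0417) without the 3 libraries of high acute phase transcripts. Chow antibiotic replicate 4 was also the library with the highest Mcm4, at 21.9 CPM, the highest summed level of 5 neutrophil markers (75.4 CPM, against 2.98 to 4.47 in the rest of its group) and an rRNA-like share of 7.69%. Their part in the Mki67 value was not tested.

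The remaining late genes were sparse. Aurka, a spindle kinase, measured 1.49 to 2.79 CPM in chow control and 0.852 to 1.58 in chow antibiotic (-0.89 ± 0.34, edgeR adjusted p = 0.0688). Ccna2, cyclin A2, measured 0.107 to 1.14 CPM in chow control and 0 to 0.5 in chow antibiotic (-1.27 ± 0.58, edgeR adjusted p = 0.123). These values had the sign of the Top2a value but did not pass. Cdk1, the kinase of mitotic entry, had an interval of -1.14 to 0.80 for the water after chow, and Birc5 (survivin) one of -1.38 to 1.56. Both intervals include a 2-fold fall. Summed over all 11 late genes, the level was 7.07 to 8.8 CPM in chow control, 4.33 to 8.27 in fast food control and 4.33 to 8.36 in fast food antibiotic. In chow antibiotic it was 4.05, 3.77, 2.92 and 10.1 CPM in replicates 1 to 4, the last being the library of high Mki67.

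The 5 untested genes can be given only as reads. Ccnb2 had 9, 11, 8 and 10 reads in fast food control (0.408 to 0.542 CPM) and 1, 1, 6 and 0 in chow control (0 to 0.297 CPM). It had 0 to 2 in chow antibiotic and 0 to 4 in fast food antibiotic. Fast food control was thus above every other library, and with no filter on low counts the contrast with chow control had an edgeR adjusted p of 0.423. Ccnb1 had 3, 1, 2 and 3 reads in chow control and 0 in all 4 chow antibiotic libraries. A count of 0 allows up to 3 reads, or 0.167 to 0.426 CPM in those 4 libraries, so no fold is given. With no filter on low counts none of these 5 genes passed in any comparison, and the lowest edgeR adjusted p was 0.052, for Ccnb1 and the water after chow.

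**Figure D4:**
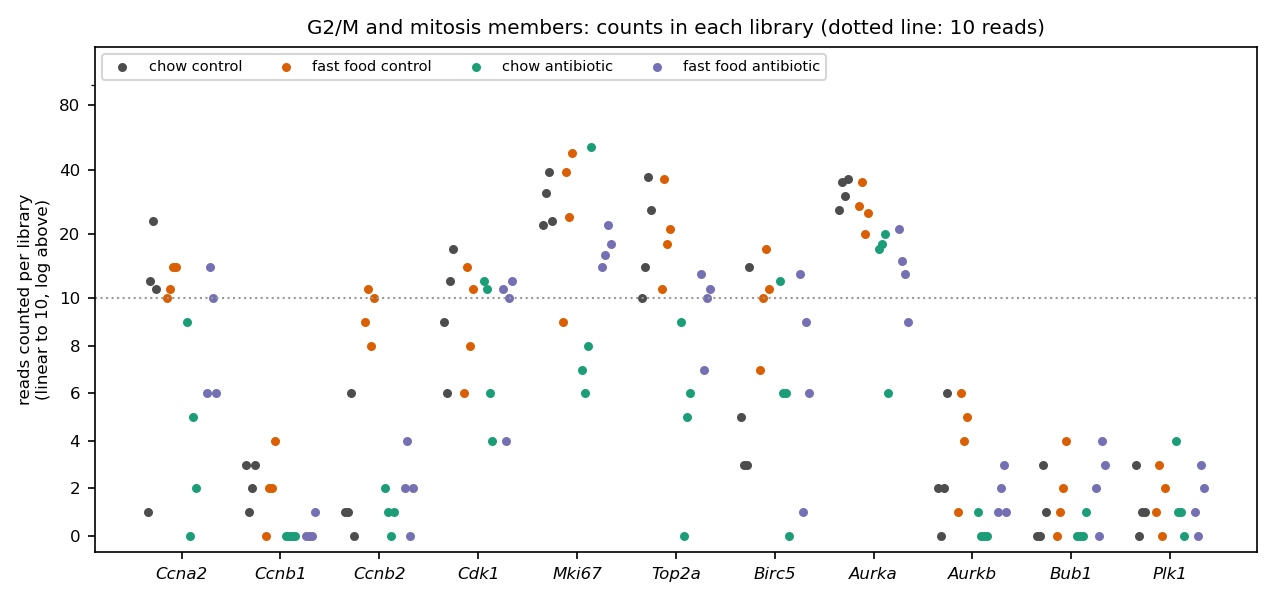
Reads counted in each library (points, coloured by group) for the 11 genes of G2 and mitosis, on an axis that is linear up to 10 reads (dotted line) and logarithmic above. Ccnb1, Bub1 and Plk1 stay at or below 4 reads in every library, and Mki67 reaches 51 reads in 1 chow antibiotic library.

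The interaction asks whether the meal difference depends on the water. It passed for Ccnd1 and Pcna, 2 of 27 members (7.41%), where 3.94% of all genes passed. Ccnd1 was 1.82 ± 0.43 (edgeR adjusted p = 0.0291, all genes 2.36% higher), with meal values of 1.26 on antibiotic water and -0.57 on control water. Pcna was -0.94 ± 0.24 (edgeR adjusted p = 0.0399, all genes 1.58% lower), with meal values of -0.72 and 0.22. Both calls depended on the fit. With a covariate for rRNA-like reads the values were 1.70 (adjusted p = 0.0852) and -0.80 (adjusted p = 0.104), and with the replicate number as a block 1.74 (0.05) and -0.97 (0.0549). Ccnd1 was lost when any 1 of 9 of the 16 libraries was left out (1.57 to 1.90 in those fits) and Pcna when any 1 of 11 was left out (-1.02 to -0.81). E2f1 (2.20 ± 0.73, edgeR adjusted p = 0.0912), Mcm3 (-1.15 ± 0.35, adjusted p = 0.0688) and Cdk6 (0.83 ± 0.30, adjusted p = 0.123) did not pass. Without the 3 libraries of high acute phase transcripts 7 members passed, where 14% of all genes did, with Cdk6 (0.97), E2f1 (2.61), Mcm7 (-0.68), Rrm1 (0.71) and Rrm2 (-1.40) added.

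Other genes of the same pathways came from 7 lists of 146 genes, of which 118 were tested. On antibiotic water after chow 23 of them passed (19.5%, all genes 23.8%), with fast food on antibiotic water 11 (9.32%, all genes 13.7%), and on antibiotic water after fast food 6 (5.08%, all genes 5.99%). With fast food on control water 1 passed (0.847%, all genes 0.577%), and for the interaction 2 (1.69%, all genes 3.94%). These shares are near or below those of all genes, so the genes are described one by one. Of 18 targets of p53 and growth arrest genes, 4 were higher and 2 lower on antibiotic water after chow (33.3%, all genes 23.8%, median log2 fold change 0.58). With fast food on antibiotic water 0 were higher and 3 lower (16.7%, all genes 13.7%, median -0.64). Trp53inp1, a p53-induced stress gene, averaged 142 CPM in chow control, 107 in fast food control, 828 in chow antibiotic and 242 in fast food antibiotic, and rose on antibiotic water after chow (2.54 ± 0.57, edgeR adjusted p = 0.00624). Btg2, an antiproliferative gene, averaged 26.7, 17.1, 175 and 36.4 CPM in the same order (2.71 ± 0.73, edgeR adjusted p = 0.018). Sesn1 (1.91 ± 0.37, adjusted p = 0.00239) and Btg1 (0.83 ± 0.17, adjusted p = 0.00234) rose as well, whereas Eda2r (-1.67 ± 0.41) and Ccng1 (-0.38 ± 0.12) fell. With fast food on antibiotic water Btg1 (-1.11), Sesn1 (-1.49) and Trp53inp1 (-1.78) fell. For the water after chow, 12 of the 18 did not pass, and 13 of the 18 had a log2 fold change above 0. A shared response of p53 targets was not tested.

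Of 30 tested genes of replication licensing and the fork, 0 were higher and 3 lower on antibiotic water after chow (10%, all genes 23.8%). Among the 3 were the clamp loader subunits Rfc2 (-0.80 ± 0.15) and Rfc3 (-0.86 ± 0.25). The median of that list was -0.14, so that Pcna and Rrm2 did not stand for it. None of the 30 passed with fast food on antibiotic water, where 13.7% of all genes did. At an unadjusted p under 0.05 in edgeR there were 6, and that share over all genes is not given here. In control water 1 of the 30 passed, Prim1, the gene of the primase catalytic subunit, which fell with fast food (-1.46 ± 0.26, edgeR adjusted p = 0.0181). In that comparison 0.577% of all genes passed, and 0.0824% to 0.314% with 1 library left out. The values of Prim1 in those fits are not given here. Of 16 genes of the E2F, RB and DREAM group, 2 were higher and 1 lower on antibiotic water after chow (18.8%, all genes 23.8%). Tfdp2 (0.97 ± 0.15) and Rb1 (0.35 ± 0.12) rose and E2f3 (-0.94 ± 0.23) fell. In the meal comparison on antibiotic water E2f6 rose (0.61 ± 0.16) and Tfdp2 fell (-0.51 ± 0.15), or 12.5% of the 16 (all genes 13.7%). Of 13 further genes of CDK activation and inhibition, Cdc25a, a phosphatase that activates CDK2, fell on antibiotic water after chow (-0.69 ± 0.23). Skp2, which targets p27 for degradation, rose with fast food on antibiotic water (1.19 ± 0.30, edgeR adjusted p = 0.0165). Each was the only call of the 13 in its comparison (7.69%, all genes 23.8% and 13.7%).

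Of 25 tested genes of the spindle, kinetochore and cytokinesis, 2 were higher and 3 lower on antibiotic water after chow (20%, near the 23.8% of all genes, median -0.25). Nusap1, a spindle protein gene, fell (-2.23 ± 0.60, edgeR adjusted p = 0.0126), from a mean of 1.04 CPM in chow control to 0.213 in chow antibiotic, and so did Cenpa (-1.17 ± 0.33) and Nek2 (-1.17 ± 0.35). Ect2 (1.30 ± 0.41) and Ncapd2 (0.62 ± 0.22) rose. With fast food on antibiotic water Nusap1 (2.08 ± 0.61) and Cenpa (1.33 ± 0.33) rose and Ncapd2 (-0.69 ± 0.22) fell, or 12% of the 25 (all genes 13.7%). Among 9 liver mitogens and receptors, 4 passed on antibiotic water after chow (44.4%, all genes 23.8%). Egfr, the gene of the EGF receptor, rose there from a mean of 768 to 3120 CPM (2.02 ± 0.34, edgeR adjusted p = 0.000876). Hbegf (1.68 ± 0.39) and Igf1 (1.17 ± 0.19) rose too, and Met, the receptor of hepatocyte growth factor, fell (-0.71 ± 0.14). Met rose (0.78 ± 0.14) and Hbegf fell (-1.94 ± 0.41) with fast food on antibiotic water, or 22.2% of the 9 (all genes 13.7%). The DNA damage checkpoint list had 1 call among 7 tested on antibiotic water after chow (14.3%, all genes 23.8%), Brca1 (1.63 ± 0.30).

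The 6 calls on antibiotic water after fast food were spread over the lists. Prim1 (1.07), E2f7 (2.74 ± 0.68, edgeR adjusted p = 0.0314), Zmat3 (0.97), Brca1 (1.04) and Insr (0.53) were higher and Rfc3 (-1.14) was lower. All 6 calls were lost once libraries were split at 1% of rRNA-like reads, since 0 of 13180 genes then passed. A continuous term for these reads left 15 genes (0.114%), and the values of the 6 in that fit are not given here. These reads made up 0.162% to 0.338% in fast food control and 0.587% to 8.23% in fast food antibiotic. The interaction passed for Tfdp2 (-1.08) and Hbegf (-2.46).

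In bulk tissue, fewer cells of a type and less RNA per cell cannot be told apart, and markers of several cell types moved in the same comparison as Ccnd1, E2f1 and Top2a. On antibiotic water after chow, 5 of 6 Kupffer cell markers fell, with a summed level of 117 to 153 CPM in chow antibiotic and 177 to 540 in chow control. Both tested B cell markers of 4 fell (summed level of the 4 markers 0.222 to 0.459 against 1.17 to 2.15 CPM), as did 3 of 5 stellate cell markers (264 to 477 against 384 to 485 CPM), 1 of 5 cholangiocyte markers (9.28 to 31.7 against 27.8 to 43.2 CPM), 1 of 5 sinusoidal endothelium markers, Kdr (list median log2 fold change -0.01, sum 274 to 337 against 326 to 354 CPM), and 1 of 4 tested erythroid precursor markers (19.2 to 44 against 40.8 to 75.5 CPM). Of the 5 hepatocyte markers 2 rose (131000 to 193000 against 84600 to 115000 CPM). In this comparison 23.8% of all genes passed. The cholangiocyte (20%), endothelium (20%) and erythroid (25%) shares were near that, so these 3 lists did not stand out. Log2 fold changes above 0 were seen for 1 Kupffer cell, 2 stellate cell, 1 cholangiocyte, 2 endothelium and 1 erythroid marker. For the hepatocyte markers 1 value was below 0. The 3 tested neutrophil markers were all higher (median log2 fold change 2.44), but none passed. The sum of the neutrophil list was 2.98 to 75.4 against 1.57 to 9.34 CPM. Among 8 T and NK cell markers only 1 could be tested and did not pass, and Ncr1 was at 0 in all chow antibiotic libraries. The part of these cell types in the fall of Ccnd1, Cdk6, E2f1 and Top2a was not tested. The Kupffer and B cell markers were low in both antibiotic groups (Kupffer sum 114 to 169 CPM and B cell sum 0.287 to 0.849 CPM in fast food antibiotic).

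With fast food on antibiotic water 4 of 5 hepatocyte markers fell (69800 to 130000 against 131000 to 193000 CPM), as did 1 of 3 tested neutrophil markers (0.472 to 6.32 against 2.98 to 75.4 CPM). In that comparison 2 of 5 stellate cell markers rose, Col1a1 (2.04 ± 0.49) and Col3a1 (1.80 ± 0.39), while the summed level of the 5 was 323 to 415 CPM against 264 to 477. Of the sinusoidal endothelium markers 1 of 5 rose, and of the erythroid precursor markers 1 of 4 tested. Over all genes 13.7% passed in this comparison. The part of these cell types in the rise of Ccnd1 and Cdk6 and in the fall of Pcna, Rrm2 and Mcm3 was not tested.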

How the data were processed

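The authors deposited 1 table of raw read counts per gene, whole numbers for 16 libraries. Per the submitters' processing notes, the tools included STAR, HTSeq, cutadapt, FastQC, edgeR and DESeq2, with the build GRCm38.p6 and no versions or parameters. How strand and multiply matching reads were handled is not given in the sources used here. Of the 25006 identifiers, 24942 matched a symbol in a list of gene names. GENCODE M21 (GRCm38), the source of gene coordinates and exon lengths, held 24991.

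From these counts, edgeR 4.0.16 in R 4.3.3 kept 13180 genes (filterByExpr, minimum count 10) and fitted a quasi-likelihood model (robust, TMM factors) with 4 group means to all 16 libraries. The common biological coefficient of variation was 0.222. Tests are two-sided, and p-values were adjusted over all genes tested (Benjamini-Hochberg, threshold 0.05). Standard errors were taken from the fold change and its F statistic (size over root F), and intervals are 95%. CPM used TMM-scaled library sizes, and RPKM is CPM per kilobase of exon. DESeq2 1.42.0 was an alternative. Others were RLE factors, no filter or a stricter one, only the 2 groups compared, the replicate number as a block, each library left out, the 3 libraries of high acute phase transcripts left out, and the rRNA-like share as a covariate or as a term split at 1%.

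The members, the lists, the alternatives and the rule for named genes were chosen with earlier results of these data known. All 32 members are named, and in each list up to 5 called genes of lowest p per comparison, plus Ccng1, chosen after its value was seen. A called gene of the replication list is not reported here. The method was checked on simulated counts. No replicate pair agreed within sampling noise. Same-numbered libraries of different groups did not deviate together (correlations -0.222 to 0.191), and no label says that the numbers pair them.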

Additional observations from a re-analysis of the deposited data

Results flagged for a closer look

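In each group of 4, the gap between the most extreme library and its nearest neighbour was set against the range of the group, for 27 tested genes in 4 groups. Of these 108 checks 6 passed the 95% critical value, and chance flags about 1 in 20. Chow antibiotic replicate 4 held 2 of them. Its Mki67 level was 7.24 CPM against 0.389 to 0.525 in the rest of the group, and its Mcm4 level was 21.9 CPM against 4.87 to 6.89. Fast food antibiotic replicate 2 held 2 others, Mcm7 at 10.3 CPM against 6.77 to 7.12 and Ccna2 at 1.01 CPM against 0.516 to 0.597. Mcm5 was 1.77 CPM in fast food control replicate 2 against 0.696 to 0.765, and Cdk2 was 4.88 CPM in chow control replicate 2 against 7.44 to 7.94.

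The difference of the meal between control and antibiotic water passed in edgeR for 2 of the 27 tested members, where 3.94% of all genes passed. It was 1.82 on the log2 scale for Ccnd1 (edgeR adjusted p = 0.0291) and -0.94 for Pcna (edgeR adjusted p = 0.0399). Neither call was kept with the replicate number as a block or with either term for rRNA-like reads.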

How the results depend on the processing

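Of the members with an unadjusted p under 0.05 or a call under some alternative, 679 values under alternatives kept direction and side of the threshold, 63 fell back and 44 passed newly. The other 8 reversed, and all were Mki67. For the meal on antibiotic water (-0.46) it was 1.57 without the 3 libraries of high acute phase transcripts, and -0.90 to 1.51 with 1 library left out. For the water after chow (-0.04) it was 0.15 with DESeq2 and -2.01 to 0.40 with 1 library left out. Over all 27 tested members, 7 to 11 in each comparison changed sign in some fit, and 1 such value passed the threshold, Mki67 at 1.57. For the meal on antibiotic water (5 members called), the count was 0 with only the 2 groups fitted, where 22 members were tested (all genes 1.87%). It was 10 without the 3 libraries of high acute phase transcripts (all genes 24.2%). With 1 library left out it was 2 to 7 (all genes 5.24% to 22.8%). For the water after chow (6 called), these counts were 3 (24 tested, all genes 20.2%), 10 (all genes 29.8%) and 4 to 9 (all genes 17.2% to 24%). For the water after fast food (0 called), DESeq2 gave 2 (all genes 12.3%) and the fit of 2 groups gave 1 (all genes 7.62%). Leaving out 1 library gave 0 (all genes 0.584% to 6.99%). For the meal on control water the count was 0 in every fit (all genes 0.0824% to 2.86%). For the interaction (2 called), DESeq2 gave 4 (all genes 8.5%), the replicate block 0 (all genes 2.69%) and the fit without the 3 libraries 7 (all genes 14%). The rRNA-like share gave 0 as a covariate (all genes 1.39%) and 0 as a split (all genes 1.99%). Leaving out 1 library gave 0 to 4 (all genes 1.23% to 11.2%). The cause of these shifts was not tested.

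With the replicate number as a block, the meal counts were 0 on control water (all genes 0.493%) and 6 on antibiotic water (all genes 11.7%). The water counts were 7 after chow (all genes 22.1%) and 0 after fast food (all genes 5.6%). The interaction count was 0 (all genes 2.69%). The numbers do not pair the libraries by any label, and in 1 of 16 checks (4 numbers in 4 comparisons) a library correlated best with the one of its own number. E2f1 and Top2a rest on few reads.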
